A study of Homo sapiens with 8 samples.

Results

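Collagens are extracellular matrix proteins built from chains that wind around each other into a triple helix, and each chain has its own gene. Fibrillar collagens form the cable-like fibres of connective tissue, type IV collagens form the sheet-like network of basement membranes, and other classes decorate fibrils, anchor epithelia or span the cell membrane. In pancreatic ductal adenocarcinoma the dense fibrillar matrix is known to come largely from stromal fibroblasts, while epithelial cells make basement membrane and adhesion collagens. The collagen chain genes were taken as all rows of the deposited count table whose symbol was COL, a number, the letter A and a number, which gave 44 of 58870 genes.

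Levels were measured by bulk RNA sequencing in CFPAC-1, a long-established line of human pancreatic ductal adenocarcinoma cells. Cells carried either an empty vector (n = 4 libraries) or an ADRA2A transgene (n = 4 libraries). ADRA2A encodes the alpha-2A adrenergic receptor. All cells were grown untreated for 72 hours in IMDM with 10% FBS and 1% penicillin-streptomycin. The labels did not give the promoter of the transgene, whether a line was 1 clone, or whether libraries of a group came from separate cultures, so p-values measure the spread between these samples, which may be technical.

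Library totals lay between 14427035 and 17528915 counts. The ADRA2A gene had 0 counts in all 4 empty-vector libraries and between 112 and 172 in the 4 ADRA2A libraries. All 8 epithelial markers (EPCAM, CDH1, CLDN4, CLDN7 and 4 keratins) passed the filter on low counts. With ADRA2A 2 were higher (25%, against 21.6% of all genes) and 4 lower (50%, against 21.1%). Their summed level was 12100 to 12700 counts-per-million (CPM) in empty-vector and 11800 to 12900 CPM in ADRA2A libraries. KRT8, KRT18 and KRT19 made up most of that sum, at means of 4870, 2530 and 2820 CPM with the empty vector. KRT7, CDH1 and CLDN7 were lower without overlap of the groups (log2 fold change -0.43, -0.33 and -0.30). KRT19 and EPCAM were higher without overlap (0.20 and 0.11), and KRT18 was lower with overlapping groups (-0.09). Of 12 fibroblast and stellate cell markers 3 passed the filter (LUM, ACTA2 and RGS5), and RGS5 was lower with ADRA2A. PDPN and DPT had 0 counts in every library, and PDGFRA, PDGFRB and DCN had at most 5. The summed level of the 12 was 8.3 to 10.3 CPM in empty-vector and 6.92 to 7.39 CPM in ADRA2A libraries. Most of it was RGS5, at a mean of 5.62 CPM with the empty vector and 3.95 CPM with ADRA2A, and NUF2 overlaps RGS5 on the other strand. LUM went from a mean of 1.37 to 0.924 CPM and ACTA2 rose from 1.6 to 1.88 CPM, neither past the threshold. FAS and STAMBPL1 overlap ACTA2 on the other strand, and ACTA2 had 18 to 38 counts per library. The sum was lower in the same libraries as the 11 chains that fell, and its part in those differences was not tested. Lower RNA per cell and fewer cells with the RNA cannot be told apart in bulk samples.

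Type IV collagen genes lie in head-to-head pairs that are transcribed away from a shared region. Both members of 2 such pairs fell in the ADRA2A cells, as given in the values for type IV collagen, and the DNA between or before their starts is shown for that reason. RefSeq windows on GRCh38.p14 were found for 32 of the 44 chains, 19 of them among the chains tested. The RefSeq starts of COL4A1 (minus strand) and COL4A2 (plus strand) are separated by 126 bases, at chr13:110307158-110307283. COL4A5 (plus strand) starts 379 bases from the nearer of 2 starts of COL4A6 (minus strand), and the 250 bases before the COL4A5 start are at chrX:108439588-108439837. Both are printed 5′ to 3′ on the plus strand, with capitals for the letters of a CCAAT box (CCAAT) or a GC box (GGGCGG) on either strand.
COL4A1-COL4A2: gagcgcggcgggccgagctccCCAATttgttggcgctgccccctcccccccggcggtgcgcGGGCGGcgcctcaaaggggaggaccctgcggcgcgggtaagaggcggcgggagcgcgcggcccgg
COL4A5: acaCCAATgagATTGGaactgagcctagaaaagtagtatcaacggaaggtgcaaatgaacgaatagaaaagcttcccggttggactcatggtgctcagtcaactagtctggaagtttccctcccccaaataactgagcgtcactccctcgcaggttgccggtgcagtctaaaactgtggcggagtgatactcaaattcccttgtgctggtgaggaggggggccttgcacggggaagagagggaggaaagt

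The COL4A1-COL4A2 region had a GC content of 80.2% and held 1 CCAAT box and 1 GC box, with no TATA box (TATAAA). Among the 35116 windows of all genes trimmed to the same 126 bases, 21.1% held a CCAAT box, 34.6% a GC box and 5.87% a TATA box. The COL4A5 region had a GC content of 51.2% and held 2 CCAAT boxes, 1 on each strand, with no GC box or TATA box. Over 250 bases, 32% of all windows held a CCAAT box, 42.6% a GC box and 10.7% a TATA box. The motifs searched do not overlap each other in these regions, and a match of letters is a description only.

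CFPAC-1 cells expressed 22 of the collagen chains at an appreciable level. A mean of at least 1 CPM in either group was reached by these 22 of 44 chains, 10 CPM by 11 chains and 100 CPM by 4. At least 1 count in every library was found for 26 chains. The filter on low counts kept 25 chains for testing. Of the 19 others, 9 had 0 counts in all 8 libraries: the fibrillar chains COL2A1, COL5A3 and COL11A1, the basement membrane chain COL4A3, and COL10A1, COL6A6, COL20A1, COL23A1 and COL15A1. The other 10 chains not tested had at most 12 counts in any library. COL1A2, the alpha-2 chain of type I collagen, had between 1 and 12 counts, and COL3A1, the fibroblast-rich type III chain, had 1 count in 1 library. COL4A4 had up to 3 counts, COL8A2 and COL25A1 up to 6, COL14A1 up to 9, COL19A1 up to 2, and COL6A5, COL9A1 and COL26A1 up to 1. Differences in these chains were not detectable at this depth.

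Per kilobase of transcript, which allows levels of different chains to be compared, COL18A1 stood highest in the empty-vector cells, at 78.5 ± 1.87 CPM per kilobase (SD, n = 4). COL4A2 followed at 63.9 ± 0.835, COL4A1 at 36.1 ± 0.959, COL6A1 at 23.7 ± 1.12, COL6A2 at 17.9 ± 1.19, COL1A1 at 13.2 ± 0.326 and COL17A1 at 11.4 ± 0.59 CPM per kilobase (SD, n = 4 each). All other chains were under 5 CPM per kilobase, led by COL13A1 at 4.99 ± 0.375 (SD, n = 4). COL7A1 at 3.93 ± 0.69 and COL8A1 at 3.87 ± 0.361 CPM per kilobase (SD, n = 4 each) differed by less than their spread. In the ADRA2A cells COL18A1 stayed highest at 89.2 ± 2.0 and COL4A2 next at 42.7 ± 1.1, but COL17A1 moved from the 7th to the 3rd place at 25.9 ± 0.703 CPM per kilobase (SD, n = 4 each). COL4A1 at 21.1 ± 1.05, COL6A1 at 20.3 ± 0.883 and COL6A2 at 19.9 ± 1.2 CPM per kilobase (SD, n = 4 each) then lay within their spread of each other. COL1A1 was at 4.03 ± 0.206 CPM per kilobase (SD, n = 4).

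**Figure D1:**
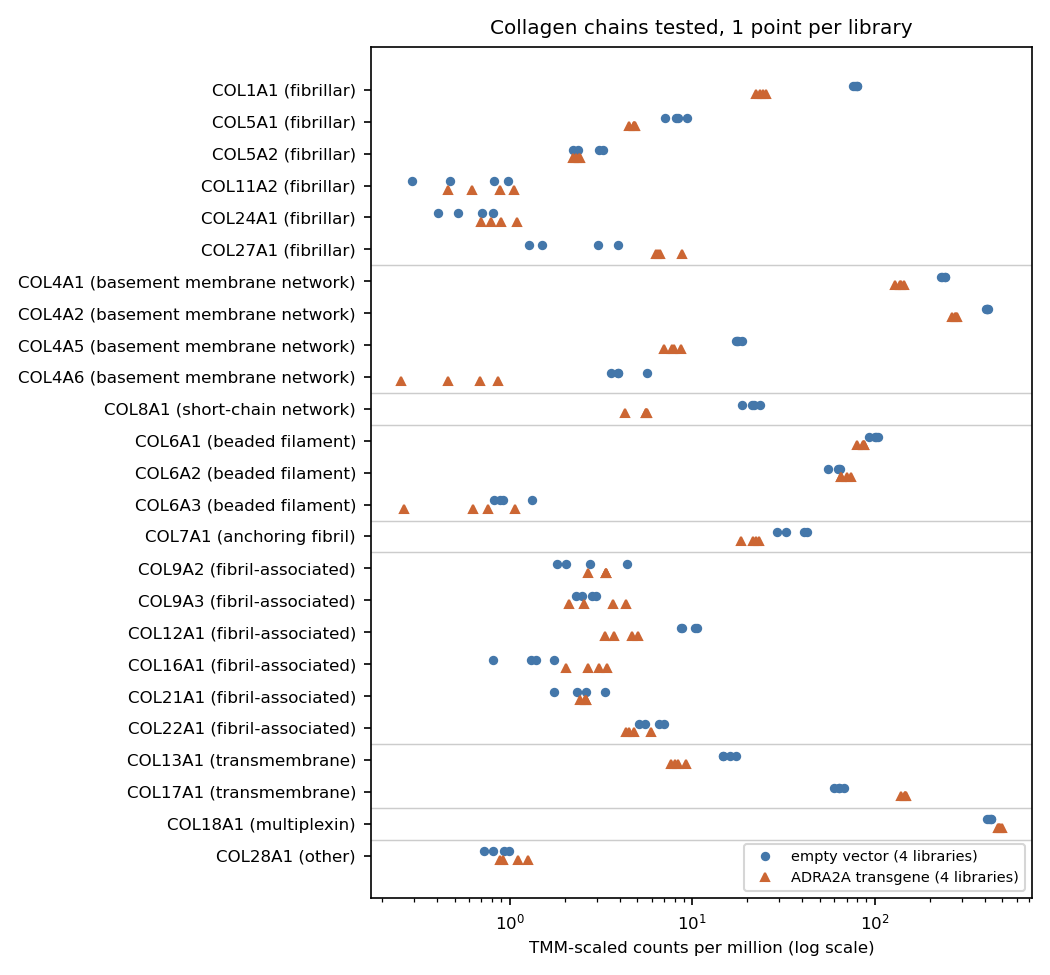
Level of the 25 collagen chains tested, in CPM after TMM scaling, on a log axis, with 1 point per library (4 empty vector, 4 ADRA2A) and grey lines between collagen classes. COL4A2 sits between 406 and 419 CPM in the empty-vector libraries and between 266 and 283 CPM in the ADRA2A libraries, whereas COL17A1 goes from 60.1-68.2 to 140-149 CPM.

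Cells with the ADRA2A transgene were compared with empty-vector cells, and the cause of the differences between them was not tested. In edgeR's quasi-likelihood test, 16 of the 25 chains tested (64.0%) passed the threshold of 0.05 after Benjamini-Hochberg adjustment, against 42.7% of all 14785 genes tested. Of these 11 chains (44%) were lower in the ADRA2A cells, where 21.1% of all genes were, and 5 (20%) were higher, where 21.6% of all genes were. The median log2 fold change of the 25 chains was -0.23, and that of all genes tested was 0.00. The 4 libraries of one group lay above all 4 of the other for 16 chains (39.2% of all genes), which were the 16 with an adjusted p-value under 0.05. A log2 fold change of 1 or more in size with an adjusted p-value under 0.05 was reached by 8 chains, 5 lower and 3 higher, against 4.66% of all genes tested.

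**Figure D2:**
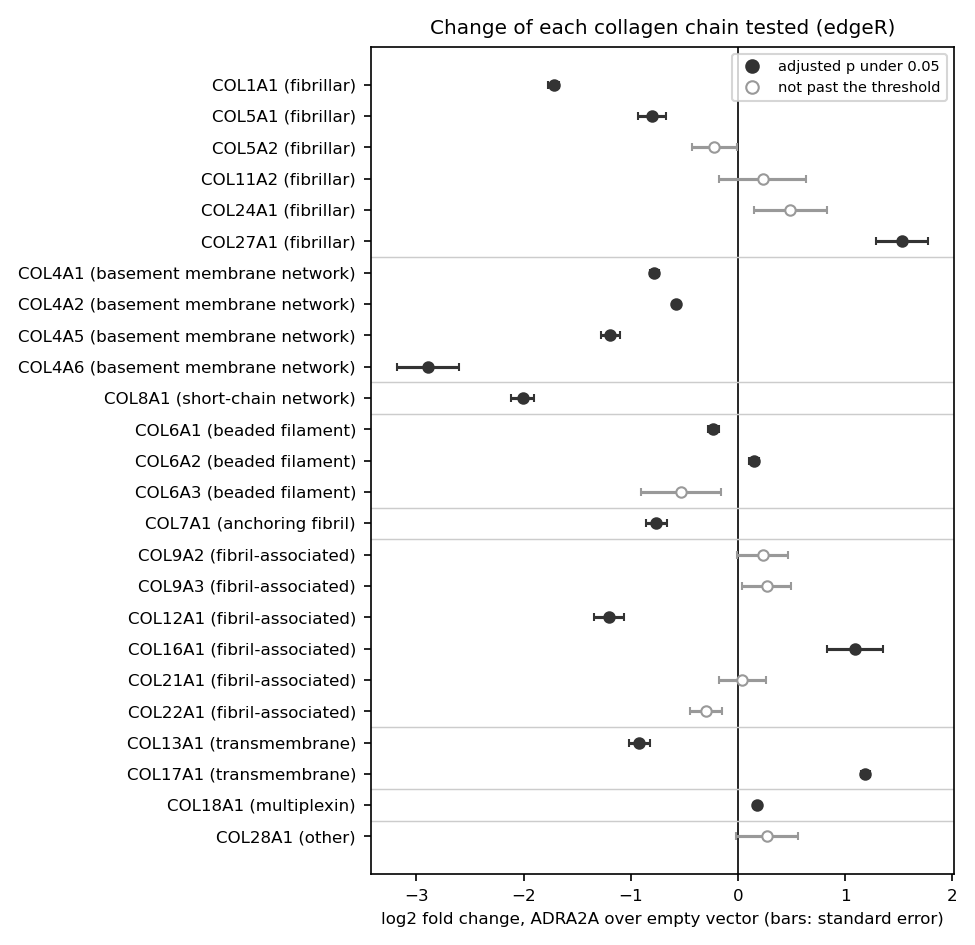
Log2 fold change of each collagen chain, ADRA2A over empty vector, from edgeR with bars for the standard error, grouped by class; filled points have an adjusted p-value under 0.05. All 4 type IV basement membrane chains tested lie below 0, from -2.89 for COL4A6 to -0.58 for COL4A2. The classes of fibrillar, beaded filament, fibril-associated and transmembrane chains hold values on both sides of 0.

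The type IV chains of the basement membrane network fell together. Of 6 type IV chains 4 were tested and all 4 were lower with ADRA2A (100%, against 21.1% of all genes). These 4 chains belong to only 2 head-to-head pairs, and their median log2 fold change was -0.98. COL4A1 and COL4A2, which together form the type IV network found in nearly all basement membranes, lie on chromosome 13 of GRCh38 (COL4A1 from 110148963 to 110307157, COL4A2 from 110305812 to 110513209). COL4A1 had 229, 242, 233 and 241 CPM in empty-vector replicates 1 to 4 and 145, 139, 138 and 129 CPM in ADRA2A replicates 1 to 4. Every ADRA2A library was below every empty-vector library, and the log2 fold change was -0.78 ± 0.04 (standard error; adjusted p by edgeR = 6.3e-12). COL4A2 had 410, 406, 419 and 411 CPM in the empty-vector libraries and 276, 277, 283 and 266 CPM in the ADRA2A libraries. Its replicates were the closest of any chain in the empty-vector group, with a coefficient of variation of 1.31%, and its log2 fold change was -0.58 ± 0.03 (standard error; adjusted p by edgeR = 2.05e-11). The annotated bodies of these 2 genes overlap at their 5′ ends on opposite strands, and the use of strand in counting is not given in the sources used here.

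COL4A5 and COL4A6, whose chains assemble into the alpha-5 and alpha-6 network of some epithelial and smooth muscle basement membranes, also fell. COL4A5 (chromosome X, 108439838 to 108697545) had 17.3, 18.8, 17.8 and 17.5 CPM in the empty-vector libraries and 8.71, 7.78, 6.98 and 7.9 CPM in the ADRA2A libraries. All ADRA2A libraries were lower, and the log2 fold change was -1.19 ± 0.09 (standard error; adjusted p by edgeR = 2.19e-09). COL4A6 (chromosome X, 108155607 to 108439497) had 3.92, 3.93, 5.63 and 3.6 CPM with the empty vector and 0.691, 0.461, 0.858 and 0.253 CPM with ADRA2A. The last 4 values are 10, 7, 15 and 4 counts, so they carry a large counting error. Its log2 fold change of -2.89 ± 0.29 (standard error; adjusted p by edgeR = 1.23e-07) was the lowest of all chains tested. COL4A3 and COL4A4, the chains of the kidney glomerular network, were at 0 to 3 counts.

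Of 11 fibrillar chains 6 were tested, 2 were lower and 1 was higher, a share of 50% near the 42.7% of all genes, and the median log2 fold change was 0.01. COL1A1 (chromosome 17, 50184101 to 50201632, minus strand) encodes the alpha-1 chain of type I collagen, the main fibre protein of skin, bone and scar tissue. It had 75.9, 79.6, 80.0 and 77.6 CPM in the empty-vector libraries and 25.2, 22.3, 24.3 and 23.5 CPM in the ADRA2A libraries. The groups were far apart next to their spread, with a level 3.28-fold lower in the ADRA2A cells (log2 fold change -1.72 ± 0.05, standard error; adjusted p by edgeR = 3.41e-15). Its usual partner COL1A2 had 12, 3, 8 and 6 counts in the empty-vector libraries and 4, 2, 1 and 2 counts in the ADRA2A libraries, where COL1A1 had 339 to 1379 counts over the 8 libraries. COL1A1 was thus found almost without COL1A2 in both groups.

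COL5A1 (chromosome 9, 134641803 to 134844843), a type V chain that starts and limits the width of type I fibrils, had 8.13, 7.12, 8.36 and 9.41 CPM with the empty vector and 4.77, 4.81, 4.52 and 4.86 CPM with ADRA2A. It was lower in all ADRA2A libraries (log2 fold change -0.80 ± 0.13, standard error; adjusted p by edgeR = 3.24e-05). COL27A1 (chromosome 9, 114155537 to 114312511), a fibrillar chain known from developing cartilage, went the other way, from 3.92, 3.05, 1.28 and 1.5 CPM to 6.64, 6.46, 6.35 and 8.78 CPM. The empty-vector libraries differed widely among themselves, with a coefficient of variation of 51.8%, yet all lay below the ADRA2A libraries (log2 fold change 1.53 ± 0.24, standard error; adjusted p by edgeR = 4.22e-05). COL5A2, the partner of COL5A1, was at 2.73 ± 0.507 and 2.33 ± 0.0962 CPM (SD, n = 4 each), and its groups overlapped (log2 fold change -0.22 ± 0.21, standard error; adjusted p by edgeR = 0.419). COL11A2 at 0.23 ± 0.41 and COL24A1 at 0.49 ± 0.34 (log2 fold change ± SE) had edgeR adjusted p-values of 0.683 and 0.265, at means under 1 CPM.

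Among the other network and filament formers, COL8A1 moved most. It encodes a short-chain collagen of the endothelial and vascular matrix and lies on chromosome 3 (99638475 to 99799226). COL8A1 had 18.8, 21.7, 23.6 and 21.2 CPM in the empty-vector libraries and 5.6, 5.67, 5.55 and 4.3 CPM in the ADRA2A libraries. Its level was 4.04-fold lower in the ADRA2A cells, with no overlap of the groups (log2 fold change -2.01 ± 0.11, standard error; adjusted p by edgeR = 1.03e-11). COL8A1 was the one chain tested of 3 in its class.

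The chains of type VI collagen, which forms beaded filaments around cells, differed by small amounts. COL6A1 had 104, 101, 93.2 and 100 CPM with the empty vector and 87.4, 86.3, 79.8 and 87.7 CPM with ADRA2A, a log2 fold change of -0.23 ± 0.05 (standard error; adjusted p by edgeR = 5.32e-04). COL6A2, its neighbour on chromosome 21, had 62.6, 63.6, 64.5 and 55.5 CPM with the empty vector and 73.8, 70.1, 65.4 and 65.3 CPM with ADRA2A. The highest empty-vector and the lowest ADRA2A library were nearly equal, and the log2 fold change was 0.15 ± 0.05 (standard error; adjusted p by edgeR = 0.0283). That call was lost when empty-vector replicate 4, ADRA2A replicate 1 or ADRA2A replicate 2 was left out (edgeR adjusted p = 0.121, 0.11 and 0.065), over a range of log2 fold changes of 0.11 to 0.18 across all alternatives. COL6A3, the third chain of the usual heterotrimer, had 4 to 23 counts per library and overlapping groups (log2 fold change -0.53 ± 0.37, standard error; adjusted p by edgeR = 0.262).

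COL7A1 encodes the only chain of type VII collagen, which forms the anchoring fibrils that tie an epithelial basement membrane to the tissue under it. It had 42.5, 32.5, 29.3 and 40.8 CPM in the empty-vector libraries and 22.4, 18.6, 21.6 and 23.1 CPM in the ADRA2A libraries. The groups did not overlap, although the empty-vector libraries had a coefficient of variation of 17.6% (log2 fold change -0.76 ± 0.10, standard error; adjusted p by edgeR = 4.83e-06).

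Transmembrane chains moved in opposite directions. COL17A1 (chromosome 10, 104031286 to 104085880, minus strand) encodes a hemidesmosome protein that links the keratin cytoskeleton of basal epithelial cells to the basement membrane. It had 63.9, 68.2, 60.1 and 63.5 CPM in the empty-vector libraries and 140, 147, 149 and 147 CPM in the ADRA2A libraries. Its level was 2.28-fold higher with ADRA2A, with the smallest p-value of the 5 chains that rose (log2 fold change 1.19 ± 0.04, standard error; adjusted p by edgeR = 6.09e-14). COL13A1, a membrane collagen of cell adhesion sites and the neuromuscular junction on the same chromosome (69801880 to 69964275), had 16.0, 14.8, 17.3 and 14.8 CPM with the empty vector and 8.09, 8.31, 9.27 and 7.64 CPM with ADRA2A. It fell in every ADRA2A library (log2 fold change -0.92 ± 0.10, standard error; adjusted p by edgeR = 1.86e-07). COL23A1 was at 0 counts and COL25A1 at 0 to 6 counts.

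COL18A1, a multiplexin of epithelial and vascular basement membranes whose C-terminal fragment is endostatin, was the most abundant chain per length and rose slightly. It had 432, 433, 422 and 411 CPM with the empty vector and 482, 497, 472 and 478 CPM with ADRA2A. The groups did not overlap, and the log2 fold change of 0.18 ± 0.03 (standard error; adjusted p by edgeR = 9.62e-05) was a 1.14-fold rise. SLC19A1 overlaps COL18A1 on the other strand, with 371 to 516 counts per library against 6294 to 8258 for COL18A1.

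Fibril-associated chains coat the surface of fibrils. Of 10 chains 6 were tested, 1 was lower and 1 higher (33.3% called, against 42.7% of all genes), and the median log2 fold change was 0.14. COL12A1 had 8.66, 10.6, 10.4 and 8.76 CPM with the empty vector and 5.05, 4.68, 3.32 and 3.73 CPM with ADRA2A. It fell without overlap of the groups (log2 fold change -1.20 ± 0.14, standard error; adjusted p by edgeR = 1.02e-06). COL16A1 had 1.75, 0.813, 1.39 and 1.31 CPM with the empty vector and 2.7, 2.04, 3.43 and 3.1 CPM with ADRA2A. It rose at low abundance, from 12 to 30 counts per library to 31 to 60 (log2 fold change 1.09 ± 0.26, standard error; adjusted p by edgeR = 2.03e-03).

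The 4 other fibril-associated chains tested had overlapping groups. COL22A1, a chain of tissue junctions, was nearest to the threshold, with 6.05 ± 0.889 and 4.91 ± 0.714 CPM (SD, n = 4 each; log2 fold change -0.30 ± 0.15, standard error; adjusted p by edgeR = 0.12). COL9A2 and COL9A3, chains of the type IX collagen of cartilage, had log2 fold changes of 0.23 ± 0.24 and 0.27 ± 0.23 (standard error; adjusted p by edgeR = 0.482 and 0.364). TCFL5 overlaps COL9A3 on the other strand with 241 to 322 counts. COL21A1 was at 0.04 ± 0.22 (log2 fold change ± standard error; adjusted p by edgeR = 0.899). COL28A1, outside the named classes, was at 0.27 ± 0.29 (log2 fold change ± standard error; adjusted p by edgeR = 0.496) at about 1 CPM.

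Taken as a share of all counts, the 44 chains made up 0.151% ± 0.0015 (SD, n = 4) of the empty-vector libraries and 0.13% ± 0.00156 (SD, n = 4) of the ADRA2A libraries, which is a change of -13.9%. The same sum per kilobase of transcript was 269, 272, 267 and 264 CPM per kilobase with the empty vector and 240, 241, 235 and 234 with ADRA2A. All 4 ADRA2A libraries were below all empty-vector libraries. By this measure the type IV basement membrane chains went from 38.6% ± 0.715 to 27.4% ± 0.67 of the collagen level (SD, n = 4 each). Multiplexins, which include the basement membrane chain COL18A1, went from 29.3% ± 0.384 to 37.5% ± 0.543 (SD, n = 4 each). Transmembrane chains went from 6.12% ± 0.059 to 12% ± 0.437 and fibrillar chains from 5.67% ± 0.0819 to 2.57% ± 0.112 (SD, n = 4 each). The beaded filament chains were at 15.5% ± 0.376 and 17.0% ± 0.611 (SD, n = 4 each). Their level per kilobase was 41.7 ± 1.41 and 40.3 ± 1.8 CPM (SD, n = 4 each), a difference smaller than the spread. These sums are descriptions and were not tested, since each is set by a few abundant chains.

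**Figure D3:**
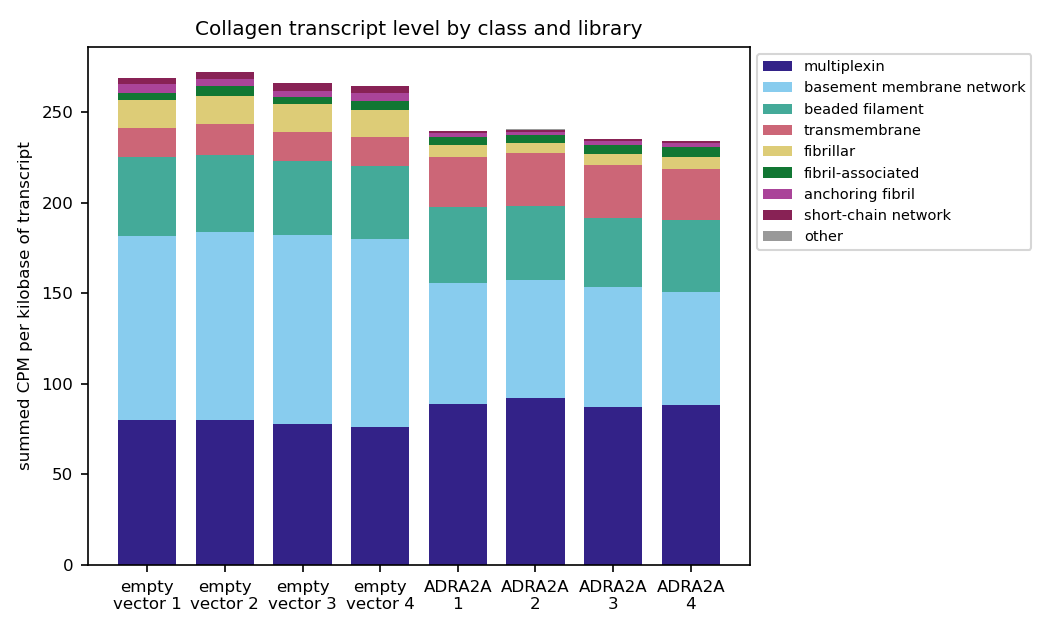
Summed CPM per kilobase of transcript of the collagen chains in each of the 8 libraries, stacked by collagen class, with the axis from 0. The total goes from 264-272 in the empty-vector libraries to 234-241 in the ADRA2A libraries. The basement membrane network (type IV) part shrinks from 38.6% to 27.4% and the transmembrane part grows from 6.12% to 12%.

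Ratios of 2 chains within a library are given for 4 pairs that were picked because their chains differed, so they only describe those pairs. An exact permutation test was run on each ratio, but pairs picked this way cannot give a fair test and no p-value is given. COL9A2 and COL9A3, which belong to 1 collagen and were not picked, had similar log2 fold changes of 0.23 and 0.27. Per-kilobase levels were used for the ratios. COL4A1 over COL4A2 was 0.55, 0.588, 0.549 and 0.577 with the empty vector and 0.52, 0.497, 0.48 and 0.477 with ADRA2A. COL4A5 over COL4A6 went from 4.52, 4.91, 3.24 and 4.99 to 12.9, 17.3, 8.33 and 32.0. The spread of the latter in the ADRA2A libraries follows the low counts of COL4A6.

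COL6A1 over COL6A2 was 1.37, 1.3, 1.18 and 1.48 with the empty vector and 0.97, 1.01, 1.0 and 1.1 with ADRA2A, so the chains were near parity in the ADRA2A cells. COL1A1 over COL5A1, a main and a minor fibril component, went from 13.3, 16.0, 13.7 and 11.8 to 7.55, 6.63, 7.66 and 6.9. None of the 4 ratios overlapped between the groups, which the choice of pairs made likely. The differences in log2 ratio, ADRA2A minus empty vector, were -0.20 for COL4A1 over COL4A2, 1.84 for COL4A5 over COL4A6, -0.38 for COL6A1 over COL6A2 and -0.92 for COL1A1 over COL5A1.

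**Figure D4:**
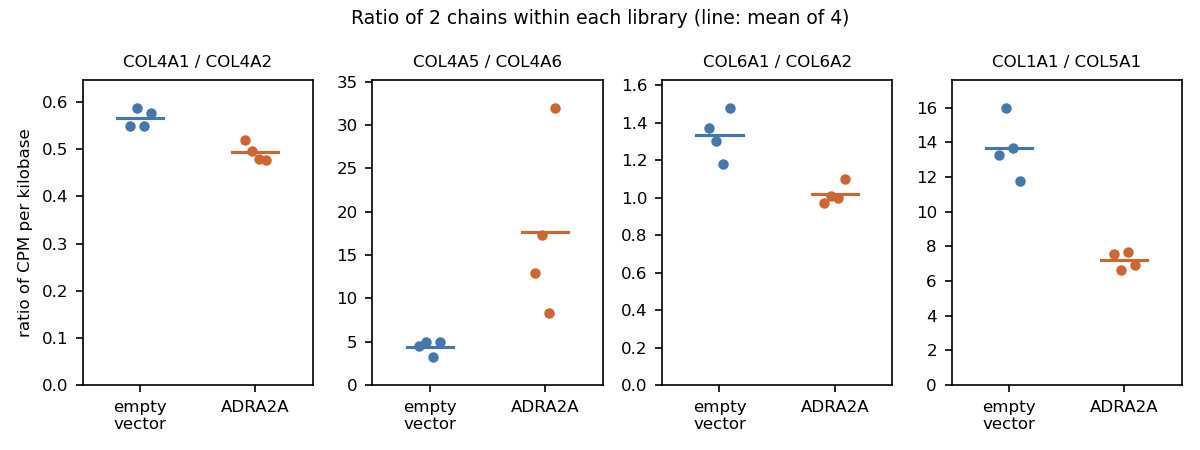
Ratio of the CPM per kilobase of 2 collagen chains within each library, with 1 point per library, a line at the mean of 4, and axes from 0. The COL4A1 to COL4A2 ratio lies at 0.549-0.588 with the empty vector and 0.477-0.52 with ADRA2A, and the 4 pairs, picked for their differences, show no overlap between groups.

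Genes next to a chain on its chromosome were examined, since a shift shared by a whole stretch would also move the chain. Over the 20 tested genes on each side, fewer near a chromosome end, the median log2 fold change lay between -0.11 and 0.11 for all 25 chains. It had the chain's sign and exceeded 0.1 before rounding for 5 chains: COL4A5 (-0.10), COL12A1 (-0.11), COL13A1 (-0.11), COL16A1 (0.10) and COL24A1 (0.11). Their own log2 fold changes were -1.19, -1.20, -0.92, 1.09 and 0.49. Around COL13A1, 29 of 40 neighbours had a negative log2 fold change.

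Other genes act on collagen chains in the endoplasmic reticulum, where the chains are folded and modified. Of 18 such genes 15 were tested, 6 were higher (40%, against 21.6% of all genes) and 2 lower (13.3%, against 21.1%), and the median log2 fold change was 0.08. The 2 lower genes, PLOD3 and COLGALT1, were at -0.12 each. With ADRA2A replicate 1 left out, 0 genes were lower. With DESeq2, with no filter, or without ADRA2A replicate 2 or any 1 of the 4 empty-vector libraries, 1 was lower. With upper quartile factors or a replicate block, 3 were lower. Leaving out 1 library gave 5 to 8 higher genes. SERPINH1, the collagen chaperone HSP47, had 130 ± 4.99 and 138 ± 3.05 CPM (SD, n = 4 each; log2 fold change 0.08 ± 0.04, standard error; adjusted p by edgeR = 0.092). P4HB, a subunit of prolyl 4-hydroxylase, was at 844 ± 23.8 and 843 ± 36.4 CPM (SD, n = 4 each; edgeR adjusted p = 0.983). The smallest p-values belonged to FKBP10 (log2 fold change 0.27 ± 0.04, standard error; adjusted p by edgeR = 6.98e-06), a prolyl isomerase of collagen folding, P3H4 (0.22 ± 0.05; 7.7e-04) and PLOD2 (0.26 ± 0.06; 1.21e-03), a lysyl hydroxylase. Of the 6 higher genes, 4 sat among tested neighbours with a median log2 fold change above 0.1. The neighbour median was 0.30 around PLOD2 and 0.18 around PLOD1, both above the genes' own 0.26 and 0.16, and it was 0.12 around P3H1 and 0.11 around P3H4, each at 0.22 (log2 fold changes). FKBP10 lies beside P3H4 on chromosome 17, so the 2 genes share most of their neighbours, and its neighbour median was 0.08. Around MIA3, the remaining higher gene, it was -0.01. The part of these neighbourhoods in the rise of the 6 genes was not tested.

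Of 14 genes for propeptide cleavage and cross-linking 12 were tested, and 6 were called (50%, near the 42.7% of all genes), 5 lower and 1 higher against 21.1% and 21.6% of all genes, with a median log2 fold change of -0.19. LOXL2, a lysyl oxidase that cross-links type IV and fibrillar collagen, went from 20.8 ± 0.813 to 9.27 ± 1.65 CPM (SD, n = 4 each), giving a log2 difference of -1.16 ± 0.10 (standard error; adjusted p by edgeR = 2.29e-08). ADAMTS3, a procollagen N-propeptidase, went from 13.4 ± 0.304 to 9.2 ± 0.562 CPM (SD, n = 4 each; log2 fold change -0.54 ± 0.09, standard error; adjusted p by edgeR = 5.44e-05), among neighbours with a median of -0.17. LOX went from 2.89 ± 0.318 to 1.12 ± 0.346 CPM (SD, n = 4 each; log2 fold change -1.35 ± 0.25, standard error; adjusted p by edgeR = 2.0e-04). SRFBP1 overlaps LOX on the other strand, and LOX had 12 to 50 counts per library. The count of lower genes was 3 with DESeq2 and 2 where genes averaging under 50 counts were left out, and 3 without empty-vector replicate 1 or ADRA2A replicate 3.

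Of 11 collagen receptors 8 were tested, 4 were lower and 3 higher, that is 87.5% called against 42.7% of all genes (21.1% lower and 21.6% higher). ITGA2, the integrin subunit that pairs with ITGB1 to bind fibrillar collagen, went from 153 ± 6.04 to 88.9 ± 5.09 CPM (SD, n = 4 each; log2 fold change -0.78 ± 0.05, standard error; adjusted p by edgeR = 4.34e-11). ITGA1, the subunit that prefers type IV collagen, went the other way, from 88.6 ± 5.83 to 126 ± 12.2 CPM (SD, n = 4 each; log2 fold change 0.51 ± 0.06, standard error; adjusted p by edgeR = 1.14e-06). ADGRG1, an adhesion G protein-coupled receptor that binds type III collagen, went from 130 ± 3.37 to 108 ± 2.77 CPM (SD, n = 4 each; log2 fold change -0.27 ± 0.04, standard error; adjusted p by edgeR = 1.24e-05).

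ITGB1, the shared beta subunit, had a log2 fold change of 0.10 ± 0.03 (standard error; adjusted p by edgeR = 7.46e-03) with overlapping groups. DDR1, the collagen-activated receptor kinase of epithelia, had 0.10 ± 0.03 (log2 fold change ± standard error; adjusted p by edgeR = 0.0212). The call of DDR1 was lost with upper quartile factors (edgeR adjusted p = 0.0606) and without empty-vector replicate 3 or 4 (0.0826 and 0.0819), over log2 fold changes that stayed positive in those fits.

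Of 7 collagenases 4 were tested, 1 was higher and 1 lower, each 25% and near the 21.6% and 21.1% of all genes. MMP1, interstitial collagenase, rose at low abundance from 0.455 ± 0.16 to 1.32 ± 0.516 CPM (SD, n = 4 each; log2 fold change 1.52 ± 0.38, standard error; adjusted p by edgeR = 2.76e-03). MMP14, a membrane-bound collagenase, went from 316 ± 14.7 to 292 ± 2.94 CPM (SD, n = 4 each; log2 fold change -0.11 ± 0.04, standard error; adjusted p by edgeR = 0.0151), and without empty-vector replicate 2 its edgeR adjusted p was 0.0596. MMP13, collagenase 3, had 3.52 ± 1.23 and 4.94 ± 0.376 CPM (SD, n = 4 each; log2 fold change 0.49 ± 0.21, standard error; adjusted p by edgeR = 0.0653). With limma voom, with no filter, and without empty-vector replicate 1 or 2 the adjusted p of MMP13 was 0.0414, 0.0235, 0.0447 and 0.028. In the other fits without 1 library its edgeR adjusted p lay between 0.0816 and 0.201. The log2 fold change was 0.28 without empty-vector replicate 4 and 0.43 without ADRA2A replicate 4.

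**Figure D5:**
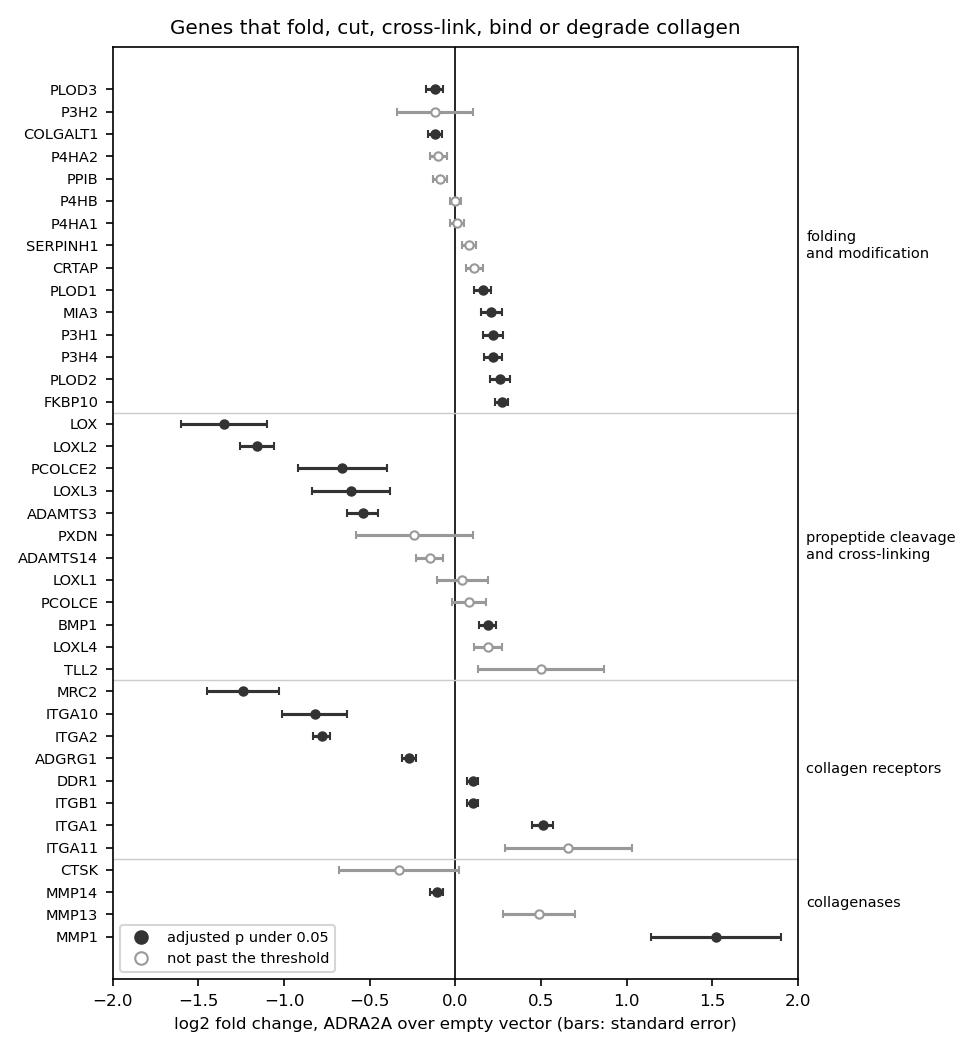
Log2 fold change, ADRA2A over empty vector, of the tested genes that fold, cut, cross-link, bind or degrade collagen, from edgeR with bars for the standard error; filled points have an adjusted p-value under 0.05. Folding genes lie between -0.12 and 0.27, whereas cleavage and cross-linking genes reach -1.35 (LOX). Receptors lie between -1.24 (MRC2) and 0.66 (ITGA11, not past the threshold), and the highest receptor past it is ITGA1 at 0.51.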

How the data were processed

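Per the submitters' processing notes, cutadapt, STAR, RSEM and DESeq2 were used with hg38; versions, roles, annotation release and use of strand are not given in the sources used here. The authors deposited RSEM estimated counts (expected counts) per gene, not scaled between samples, for 8 libraries. Columns were matched to samples by the bracketed name in each title.

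Counts were rounded and filtered with filterByExpr (14785 of 58870 genes kept) and scaled by TMM (factors 0.9938 to 1.0055). All genes were tested with the quasi-likelihood test of edgeR 4.0.16 in R 4.3.3 on the group, with Benjamini-Hochberg adjustment and a threshold of 0.05. In simulated counts of 14785 genes, 40 genes were changed at each size tried and 14585 were left unchanged. Calls were made for 90% of genes with a true log2 change of -1, 100% with 1, 80% with -0.5 and 0.096% of unchanged genes. In the data 42.7% of genes were called, a far larger share than was changed in the simulation. The simulated rates may therefore not carry over to the data. Standard errors are the absolute log2 fold change over the square root of F. Levels per kilobase use the MANE Select transcript length of GENCODE 44 on GRCh38, which also gave positions. Libraries of a group differed by more than sampling noise (chi-square per degree of freedom 2.12 to 4.55).

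Members, classes and pathway lists were chosen with earlier results of these data known. All chains tested were named, with all 8 values where the adjusted p was under 0.05 or a group mean reached 10 CPM. In each pathway list the 3 genes with the smallest p were named, plus SERPINH1, P4HB, DDR1, ITGA2 and ITGB1; any further gene was picked with its values in view. MRC2 was matched by its Ensembl identifier. Alternatives were DESeq2 1.42.0, RLE and upper quartile factors, limma 3.58.1 voom, 2 other filters, a replicate block, and fits without each library in turn.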

Additional observations from a re-analysis of the deposited data

Results flagged for a closer look

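Among 82 groups of 4 libraries examined for the named chains and pathway genes, 5 had 1 library that stood apart from the other 3 by Dixon's test; chance flags about 1 in 20 groups. COL27A1 was at 8.78 CPM in ADRA2A replicate 4 and at 6.35 to 6.64 CPM in the other 3. Without that library its log2 fold change was 1.41 (edgeR adjusted p = 2.41e-04). COL8A1 was at 4.3 CPM in ADRA2A replicate 4 against 5.55 to 5.67 CPM. COL4A6 was at 5.63 CPM in empty-vector replicate 3 against 3.6 to 3.93 CPM, and without that library its log2 fold change was -2.73 (edgeR adjusted p = 9.37e-07). COL9A2 was at 2.69 CPM in ADRA2A replicate 3 against 3.35 to 3.39 CPM, and MMP13 at 5.5 CPM in ADRA2A replicate 4 against 4.68 to 4.8 CPM. ADRA2A replicate 4 accounts for 3 of the 5.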

How the results depend on the processing

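Of the 16 called chains, 15 kept their direction and call under every alternative in which they were tested, COL6A2 being the exception. With 4 libraries a group and 4 to 23 counts per library for the thinnest chains, small changes in those chains were not detectable. Leaving out 1 library gave 15 to 16 chains called, 4 to 5 higher and 11 lower; 1 to 2 beaded filament chains; 0 to 2 lower folding genes; 1 to 2 higher and 3 to 5 lower cleavage and cross-linking genes; and 1 to 2 higher and 0 to 1 lower collagenases. With a mean of at least 50 counts, fewer genes were tested, which left 14 chains called, 1 fibril-associated chain, 3 cleavage and cross-linking genes (2 lower) and 1 collagenase (0 higher). DESeq2 gave 1 lower folding gene and 3 lower cleavage and cross-linking genes, no filter gave 1 lower folding gene, and limma voom and no filter gave 2 higher collagenases each; the cause was not tested. Leaving out 1 library moved the log2 fold change of COL11A2 between -0.02 and 0.50, of COL21A1 between -0.10 and 0.20 and of P4HB between -0.03 and 0.02, so their signs turned; none of the 3 was called in any of these fits. The collagen share differed by -0.0211 percentage points, or -0.0213 by TMM size. At 0.5 CPM 25 chains counted as expressed. Scaling moved the median of all genes by at most 0.017 (log2). Equal replicate numbers did not deviate together (correlations -0.0421 to 0.0701, 1 of 4 best with its own number); with the replicate block 16 chains were called, 5 higher and 11 lower.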
